A study of Mus musculus with 4 samples.

Results

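The transcripts described here are 8 long noncoding RNAs (lncRNAs) of mouse hematopoietic stem cells (HSCs), chosen by their gene symbols: the nuclear lncRNAs Malat1, Neat1 and Kcnq1ot1, the snoRNA hosts Gas5, Snhg1, Snhg8 and Snhg12, and the microRNA host Mir17hg. Their Ensembl gene identifiers were looked up in the count tables, which list 38293 genes for HSCs and 41214 genes for CD41low/CD9low HSCs. Of the 8, 5 (Malat1, Neat1, Gas5, Snhg12 and Mir17hg) had a row in all 4 libraries, and Kcnq1ot1 had one in the CD41low/CD9low libraries only. Snhg1 and Snhg8 matched no row under the identifiers of GENCODE M21, and their levels were not analysed here. The 6 measured lncRNAs all passed the filter on low counts of every pair in which they had a row.

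Bone marrow cells of C57Bl6 mice were sorted as HSCs (Lin- cKit+ Sca1+ CD48- CD150+) or as CD41low/CD9low HSCs, a gate set to keep out megakaryocyte precursors, and each population gave 1 Gfi1b WT and 1 Gfi1b KO library of poly(A)-selected RNA. The HSC gate given here is that of the methods, whereas the results of the paper name the population in the expression analysis CD41+/CD9+ HSCs. Whether the HSC libraries also held CD41low/CD9low cells is thus not clear. Gfi1b is a transcriptional repressor of blood stem cells, megakaryocytes and red cell precursors. KO mice were Gfi1b fl/fl with a tamoxifen-inducible Rosa-Cre, which acts in all tissues, and WT mice were Gfi1b wt/fl with Rosa-Cre according to the methods, whereas the deposited design text describes floxed mice with or without Cre. Marrow was taken 2 weeks after tamoxifen, given to both genotypes, and that of 10 WT or 5 KO mice was pooled, so that no library shows the spread between mice. The ages of the mice are not given in the sources used here. The sample titles read Gfi1 and the genotype field Gfi1b.

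Total counts on genes ran from 12732079 to 50781007 per library, at which 3 counts correspond to 0.0591 to 0.236 CPM (counts scaled to the library's total on genes). The whole-gene count of Gfi1b was 9256 in the library labelled WT and 49910 in the library labelled KO in HSCs, and 611 and 9741 in CD41low/CD9low HSCs. A whole-gene count does not separate the deleted exons from the others, so this higher count checks neither the deletion nor the labels. Gfi1, a paralog, was higher as well, with counts of 567 and 4394 in HSCs and 413 and 2643 in CD41low/CD9low HSCs. HSC markers (Kit, Ly6a, Slamf1, Procr, Mecom and Hlf) were detected in every library, with summed levels of 1639 to 2216 CPM. The 9 megakaryocyte markers summed to 1799 CPM in WT and 2538 in KO HSCs, and to 676 and 808 CPM in the CD41low/CD9low pair. The 7 myeloid markers summed to 319, 422, 856 and 206 CPM and the 5 erythroid markers to 30.7, 37.2, 125 and 16.4 CPM in the order HSC WT, HSC KO, CD41low/CD9low WT and CD41low/CD9low KO, and the B cell and T cell markers were at most 1.16 CPM in sum. Sex-linked RNAs also differed between libraries: the Y-linked Ddx3y was at 24.1 CPM in WT HSCs and at 82.2 to 92.0 CPM in the other libraries, while Xist, the X-inactivation RNA, was at 1705 and 1590 CPM in HSCs and at 145 and 265 CPM in CD41low/CD9low HSCs. The part of cell composition and of sex in the results below was not tested. In such bulk samples, fewer cells of a type and less RNA per cell cannot be told apart.

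Long noncoding RNAs of this group share no coding function and work through the RNA itself or through small RNAs cut from it. Malat1 is an abundant RNA of nuclear speckles, bodies rich in splicing factors, and Neat1 is the scaffold around which paraspeckles form. Kcnq1ot1 is transcribed from the paternal allele, antisense to Kcnq1, and silences neighbouring genes of that imprinted domain. The snoRNA hosts carry in their introns small nucleolar RNAs, which guide methylation (C/D box type) or pseudouridylation (H/ACA box type) of ribosomal RNA. Several of their spliced RNAs, Gas5 among them, begin with an oligopyrimidine tract like the mRNAs of ribosomal proteins, and are degraded by nonsense-mediated decay while they are translated. Mir17hg is the primary transcript of the miR-17-92 cluster, a target of Myc that is known for promoting the growth and survival of blood cells.

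Much of what the hosts are known for rests on the small RNAs made from them, so these sequences are shown first. Mir17hg (ENSMUSG00000089726) lies on the plus strand at chr14:115042879-115046727 of GRCm38, and 6 microRNA hairpins lie in its exons. The 6 best known mature microRNAs of the cluster, from RefSeq (GRCm38.p6), are written 5′ to 3′ with the seed, bases 2 to 8, in capitals.
miR-17-5p: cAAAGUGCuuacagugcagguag
miR-20a-5p: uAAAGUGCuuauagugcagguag
miR-18a-5p: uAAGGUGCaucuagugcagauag
miR-19a-3p: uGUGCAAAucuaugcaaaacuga
miR-19b-3p: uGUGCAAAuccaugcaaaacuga
miR-92a-3p: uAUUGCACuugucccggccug

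The seeds fall into 4 groups. The seed AAAGUGC is shared by miR-17-5p and miR-20a-5p, and GUGCAAA by miR-19a-3p and miR-19b-3p, while miR-18a-5p (AAGGUGC) and miR-92a-3p (AUUGCAC) have a seed of their own. All 6 hairpins were listed with 0 counts in every library. The libraries were made from poly(A) RNA, and a read over a hairpin also lies on Mir17hg and is counted as ambiguous, so that the counts say nothing of the mature microRNAs.

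Gas5 (ENSMUSG00000053332, chr1:161034422-161038539, plus strand) holds 10 annotated snoRNA genes, Snhg1 (chr19:8723475-8726443, plus strand) holds 8, Snhg12 (ENSMUSG00000086290, chr4:132308623-132311024, plus strand) holds 5 and Snhg8 (chr3:123507552-123508404, minus strand) holds 1. All of them share bases with an annotated exon of the host, since the models include transcripts that retain introns. Below are 1 C/D box snoRNA of Gas5 and 1 of Snhg12, and the H/ACA snoRNAs of Snhg12 and Snhg8 to which counts were assigned, from the GENCODE M21 transcripts of GRCm38. Capitals mark the C box (TGATGA) and the D box (CTGA), or the ACA box.
Snord47 (Gas5, chr1:161038082-161038158): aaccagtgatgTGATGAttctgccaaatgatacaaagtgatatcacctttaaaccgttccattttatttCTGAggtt
Snord99 (Snhg12, chr4:132310691-132310764): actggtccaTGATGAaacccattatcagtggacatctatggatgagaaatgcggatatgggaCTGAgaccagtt
Snora16a (Snhg12, chr4:132309465-132309600): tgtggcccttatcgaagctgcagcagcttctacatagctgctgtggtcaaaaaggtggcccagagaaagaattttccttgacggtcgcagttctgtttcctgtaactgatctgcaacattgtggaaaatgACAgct
Snora24 (Snhg8, minus strand, chr3:123507937-123508066): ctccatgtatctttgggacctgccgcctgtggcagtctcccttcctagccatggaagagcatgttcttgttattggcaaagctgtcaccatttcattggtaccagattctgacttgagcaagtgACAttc

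The hosts differed in the type of snoRNA they hold. On the transcribed strand, a TGATGA starting within the first 15 bases and a CTGA starting within the last 14 were searched, and both were found in 8 of the 10 snoRNAs of Gas5, in 5 of the 8 of Snhg1 and in 1 of the 5 of Snhg12. An ACA starting within the last 8 bases, without such a C box, was found in 3 of the 5 snoRNAs of Snhg12 and in that of Snhg8. Snora16a in Snhg12 and Snord80 in Gas5 each have duplicate annotated entries with the same boxes. These tallies count every entry, so the number of distinct snoRNAs is smaller in both hosts. Among all 1507 snoRNA transcripts of the annotation, 20.1% held the C and D boxes and 45.6% the ACA box by the same search. The 9 listed snoRNAs of Gas5 and the 8 of Snhg1 had 0 counts in all libraries, and a read inside the host's exons would be ambiguous between snoRNA and host where both are annotated. Snora24 of Snhg8 had 385 counts in WT and 202 in KO HSCs (KO/WT ratio 0.648, interval 0.543 to 0.770), and 16 and 65 in the CD41low/CD9low pair (2.71, 1.55 to 5.02). Snora16a of Snhg12 had 81 and 18 counts in HSCs (0.274, 0.155 to 0.461) and 2 and 45 in CD41low/CD9low HSCs (15, 3.92 to 128). In both snoRNA genes the KO library was lower in HSCs and higher in CD41low/CD9low HSCs, and whether these reads came from the snoRNA or from its host cannot be told apart. Ratios here and below are of counts divided by median-of-ratios size factors of the pair, and their 95% intervals are exact (Clopper-Pearson) and cover counting error only, not the spread between mice or preparations.

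The start sites of Gas5 and Snhg12 are shown because the HSC ratios of these hosts, given below, were alike, a choice made after the ratios were seen. In CD41low/CD9low HSCs the ratios were 0.950 for Gas5 and 1.18 for Snhg12. The windows run from 20 bases before to 40 bases after a start annotated by RefSeq (GRCm38.p6), with the unbroken run of C and T that covers the first transcribed base in capitals.
Gas5 (plus strand, chr1:161035146-161035205): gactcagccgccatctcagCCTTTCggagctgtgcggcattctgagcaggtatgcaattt
Snhg12 (plus strand, chr4:132308658-132308717): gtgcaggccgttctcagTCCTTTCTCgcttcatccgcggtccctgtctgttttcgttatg

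The run had 6 bases in Gas5 and 9 in Snhg12. Of 32851 RefSeq promoters, 7.25% had a run over the first base as long as that of Gas5 and 3.03% one as long as that of Snhg12. RefSeq gives a further start of Gas5 upstream, at which the first base is in no such run. Snhg8 had a run of 7 bases, as long in 5.28% of promoters, and Snhg1 had one of 4 bases (13.97%). Malat1 had a run of 2 bases (24.4%), and no such run covered the start of Kcnq1ot1. These matches describe the letters at the annotated starts and show no regulation.

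Levels differed widely between the lncRNAs. Malat1 (ENSMUSG00000092341, chr19:5795690-5802672, minus strand) had 14940 CPM in WT and 14550 CPM in KO HSCs, and 11290 and 11340 CPM in the CD41low/CD9low pair. It took 1.13% to 1.49% of all gene counts and ranked between 1 and 3 of all genes by count in each library. Neat1 (ENSMUSG00000092274, chr19:5824708-5845478, minus strand), which lies beside Malat1, had 1676 and 1077 CPM in WT and KO HSCs and 556 and 613 CPM in the CD41low/CD9low pair. Neat1 was thus higher in both HSC libraries than in both CD41low/CD9low libraries, and the KO library was the lower one in HSCs only. Gas5 had 1052 and 714 CPM in HSCs and 561 and 532 CPM in CD41low/CD9low HSCs, with the KO library lower in both pairs. Kcnq1ot1 (ENSMUSG00000101609, chr7:143203458-143296549, minus strand) had 348 CPM in each CD41low/CD9low library. Snhg12 had 79.6 and 53.6 CPM in HSCs and 63.1 and 74.4 CPM in CD41low/CD9low HSCs, and the libraries of the populations overlapped. Mir17hg had 70.7 CPM in WT HSCs and 33.5 CPM in KO HSCs, and 40.1 and 41.7 CPM in the CD41low/CD9low pair, so that the WT HSC library stood above the other 3.

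**Figure D1:**
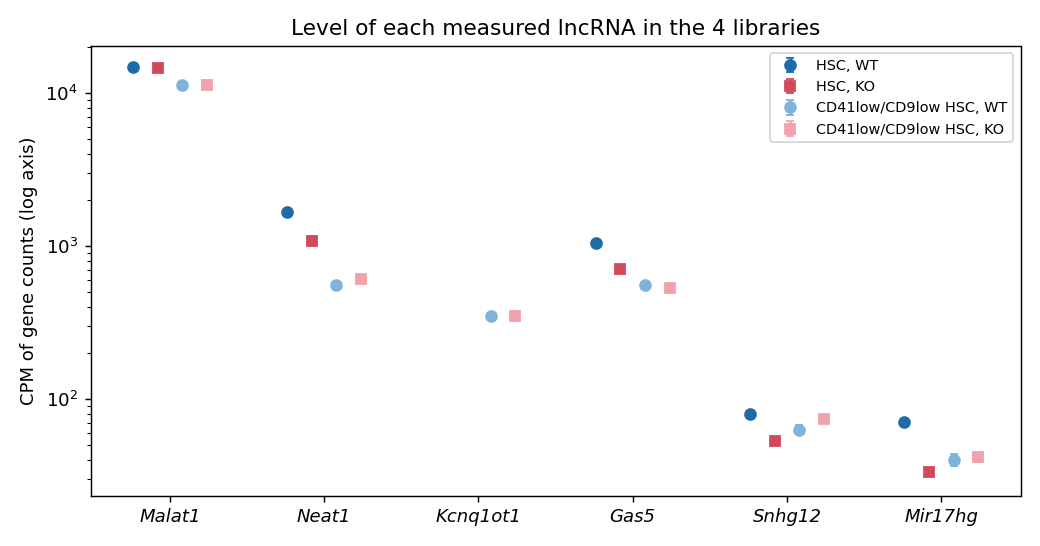
Level of each measured lncRNA (CPM of gene counts, log axis) in the 4 libraries, with circles for WT and squares for KO libraries. Vertical bars are exact 95% counting intervals, mostly smaller than the symbols, and Kcnq1ot1 was read in the CD41low/CD9low libraries only. Malat1 is the highest in each library, and Mir17hg is at 70.7 CPM in WT HSCs and at 33.5 to 41.7 CPM elsewhere.

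Levels are compared between genes per kb of annotated exon, with the exons of all transcripts of a gene merged. Which transcripts were read is not known. A gene read mainly from a transcript shorter than that length has a higher level per kb than is given here. Malat1, with 6.98 kb, was at 1617 to 2140 CPM per kb and Gas5, with 3.76 kb, at 142 to 280 CPM per kb. Neat1, with 20.8 kb, followed at 26.8 to 80.7, Snhg12, with 2.40 kb, at 22.3 to 33.1 and Mir17hg, with 3.54 kb, at 9.48 to 20 CPM per kb. Kcnq1ot1, with 93.1 kb, was lowest at 3.73 and 3.74 CPM per kb. The order of Neat1 and Snhg12 was not the same in all libraries, since Neat1 was at 29.5 and Snhg12 at 31.0 CPM per kb in KO CD41low/CD9low HSCs. With 1 library per group, no spread is known against which neighbours in this order could be told apart. Kcnq1ot1 runs through introns of Kcnq1 on the other strand and shares 121 exon bases with it. Kcnq1 itself had 0 counts in both CD41low/CD9low libraries, which allows up to 0.236 and 0.157 CPM.

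In HSCs, 4 of the 5 measured lncRNAs had a KO/WT ratio of 0.688 or below, and Malat1 had one near 1. Only Mir17hg passed a fold cutoff of the study (above 1.5 or below 0.6). Its counts were 3591 for WT and 1398 for KO, which gives a ratio of 0.481 (95% interval, 0.451 to 0.511). Neat1 followed with 85109 and 44903 counts and a ratio of 0.651 (0.644 to 0.659). The snoRNA hosts Gas5, with 53433 and 29767 counts, and Snhg12, with 4040 and 2234 counts, had ratios of 0.688 (0.678 to 0.697) and 0.683 (0.648 to 0.719). Malat1 had 758789 and 606655 counts and a ratio of 0.987 (0.983 to 0.990). Thus 1 of 5 was below 0.6 and 0 of 5 were above 1.5, where 10.3% of the 15910 genes that passed the filter were below 0.6 and 14.1% above 1.5. Among these 15910 genes, Mir17hg was at percentile 6.88, Neat1 at 12.05, Snhg12 at 13.6, Gas5 at 13.8 and Malat1 at 47.95. The median ratio of the 5 was 0.683, and that of all genes 1.

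Counts of these lncRNAs are high, and ratios of high counts scatter less. Among the 10015 genes with at least 500 counts in a library of the pair, the ratios ran from 0.687 at the 5th to 1.62 at the 95th percentile. Mir17hg was at percentile 1.03 of these genes, Neat1 at 3.54, Snhg12 at 4.73, Gas5 at 5.01 and Malat1 at 47.4. There was 1 library on each side, so that these ratios have no replicate check and no test.

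In CD41low/CD9low HSCs the same lncRNAs differed little between KO and WT. None of the 6 passed a cutoff, where 12.0% of 14844 genes were below 0.6 and 13.5% above 1.5. Mir17hg had 511 and 798 counts in WT and KO, a ratio of 1.04 (0.931 to 1.17), and Neat1 had 7075 and 11722 counts, a ratio of 1.10 (1.07 to 1.14). Snhg12 had the highest ratio, 1.18 (1.08 to 1.29), from 804 and 1423 counts, and Gas5 the lowest, 0.950 (0.921 to 0.979), from 7142 and 10176 counts. Malat1, with 143808 and 216782 counts, and Kcnq1ot1, with 4426 and 6662 counts, had ratios of 1.005 (0.998 to 1.01) and 1.003 (0.966 to 1.04). The median ratio of the 6 was 1.02, and that of all genes 1.01.

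**Figure D2:**
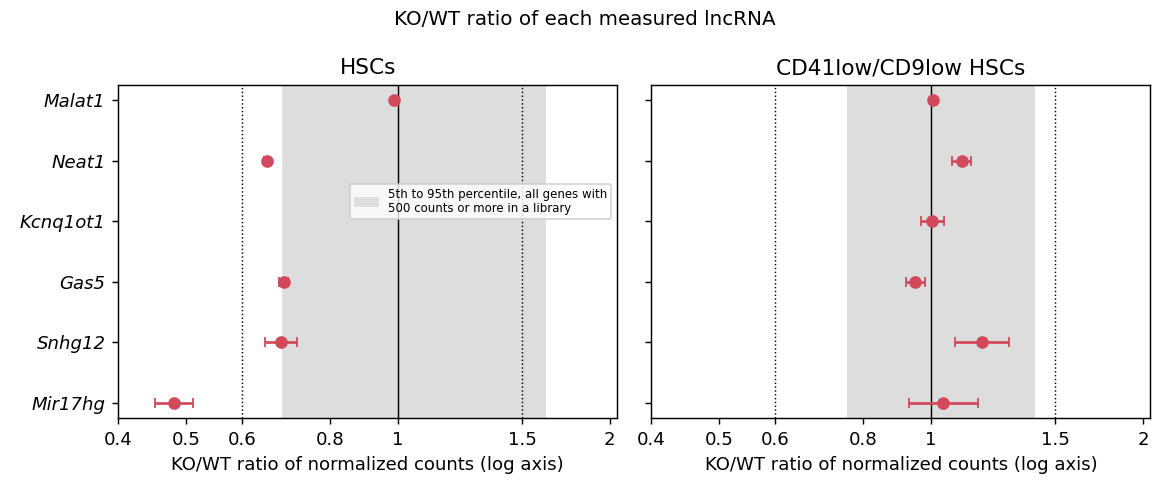
KO/WT ratio of normalized counts (log axis) of each measured lncRNA in HSCs (left) and CD41low/CD9low HSCs (right). Points are ratios of 1 library to 1 library, horizontal bars exact 95% counting intervals, dotted lines the cutoffs of 0.6 and 1.5, and the grey band the 5th to 95th percentile of all genes with 500 counts or more in a library of the pair; Neat1, Snhg12 and Mir17hg lie at or left of the band in HSCs, and all 6 lie inside it in CD41low/CD9low HSCs.

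The CD41low/CD9low ratio divided by the HSC ratio was 2.17 for Mir17hg (counting interval 1.91 to 2.46), 1.73 for Snhg12 (1.56 to 1.91), 1.70 for Neat1 (1.64 to 1.75), 1.38 for Gas5 (1.34 to 1.43) and 1.02 for Malat1 (1.01 to 1.03). Malat1, Neat1, Snhg12 and Mir17hg were below 1 in HSCs and above 1 in CD41low/CD9low HSCs, as were 3101 of 14144 genes (21.9%). Gas5 was below 1 in both, and so was Malat1 after the correction for exon length given below. Since an interaction leaves no residual degree of freedom in 4 libraries, the difference between the populations was not tested.

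To test for a genotype effect common to both populations, all 4 libraries were fitted together with terms for population and genotype (edgeR's quasi-likelihood test). Only 1 residual degree of freedom remains, and the populations stand in for replicates. The SE and p of a gene therefore rest mostly on a spread shared between genes, not on its own spread. They do not show how far the ratios of the pairs lie apart. For Mir17hg the log2 ratio of the HSC pair was -1.057 and that of the CD41low/CD9low pair 0.058, so that their signs differed. For Gas5 these values were -0.54 and -0.074. None of the 5 lncRNAs was called, where 2.81% of 16262 genes were at an adjusted p under 0.05. By unadjusted p, 2 of the 5 were under 0.05, Mir17hg and Gas5, as were 10.8% of all genes. Mir17hg had the largest estimate, a log2 KO/WT of -0.52 ± 0.19 (SE, adjusted p = 0.135), followed by Gas5 with -0.32 ± 0.14 (adjusted p = 0.331). Neat1 had -0.25 ± 0.14 (adjusted p = 0.563), Snhg12 -0.17 ± 0.17 (adjusted p = 0.907) and Malat1 -0.01 ± 0.11 (adjusted p = 0.993). DESeq2 also called 0 of the 5.

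The same fit compares the populations, with the genotypes standing in for replicates. In it, 3 of the 5 lncRNAs were lower in CD41low/CD9low HSCs than in HSCs, where 22.9% of all genes were called in either direction. The SE and p again rest mostly on the spread shared between genes. They do not show how far the WT and KO ratios given below lie apart. Neat1 was lower by a log2 difference of -1.26 ± 0.14 (edgeR's quasi-likelihood test, adjusted p = 2.3e-17), with CD41low/CD9low to HSC ratios of 0.317 among WT and 0.545 among KO libraries. Gas5 differed by -0.73 ± 0.14 (adjusted p = 5.09e-06), with ratios of 0.510 and 0.713, and Malat1 by -0.45 ± 0.11 (adjusted p = 6.8e-04), with ratios of 0.723 and 0.746. Snhg12 (0.01 ± 0.17, adjusted p = 0.983) and Mir17hg (-0.31 ± 0.19, adjusted p = 0.254) were not called, and their ratios were below 1 among WT and above 1 among KO libraries. When libraries were scaled to gene counts plus no-feature reads, Neat1 alone was called, and Malat1 (-0.13, adjusted p = 0.780) and Gas5 (-0.41, adjusted p = 0.210) were not. Under this scaling 21.2% of all genes were called, with 2748 higher and 694 lower in CD41low/CD9low HSCs, against 1481 higher and 2235 lower before. The populations were counted on gene lists that differ and were apart in Xist, while among Y-linked RNAs the WT HSC library alone stood low. Population, gene list and whatever lies behind the difference in Xist cannot be told apart here, and the part of sex was not tested.

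The reads that fell on no annotated feature, which intronic, intergenic and unannotated RNA would give, are the value beside which these nuclear RNAs were read. For every 100 counts on genes there were 80.0 such reads in WT and 105 in KO HSCs, against 62.0 and 60.1 for CD41low/CD9low HSCs, or 44.4%, 51.3%, 38.3% and 37.5% of gene counts plus no-feature reads. The pairs were counted on gene lists that differ, with 4074 genes listed for CD41low/CD9low HSCs only and 1153 for HSCs only. A read on a gene absent from a list could count as no feature there, so these shares are not directly comparable between populations. The library with the highest share was KO HSCs, in which Neat1, Gas5, Snhg12 and Mir17hg were lower than in WT HSCs. Malat1, the most abundant RNA of the group, was at 8301 and 7088 CPM of gene plus no-feature reads in HSCs and 6971 and 7080 in CD41low/CD9low HSCs. Ambiguous reads were 0.442 to 0.841 per 100 gene counts.

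Scaled to gene counts plus no-feature reads, the HSC ratios were 0.854 for Malat1, 0.563 for Neat1, 0.595 for Gas5, 0.591 for Snhg12 and 0.416 for Mir17hg, so that 4 of 5 were below 0.6, where 14.1% of all genes were below 0.6 under this scaling and 10.3% before. This scaling moved the median log2 ratio of all genes in HSCs to -0.21, and the positions of the lncRNAs among other genes stay as given above. In the CD41low/CD9low pair the scaling moved the median of all genes to 0.02, and the ratios of the 6 lncRNAs were 0.960 to 1.19. Whether the no-feature share has a part in the HSC ratios was not tested.

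**Figure D3:**
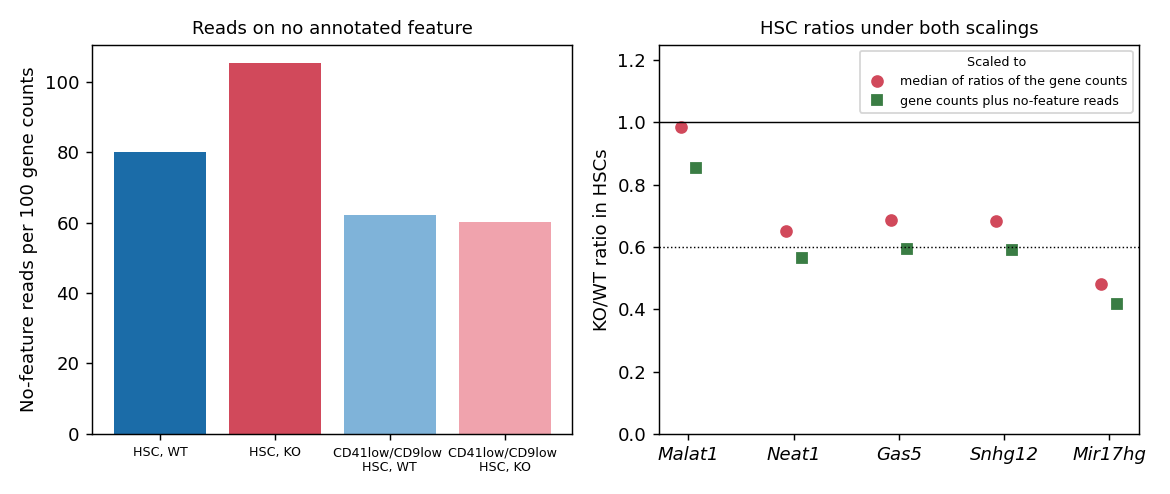
Left, no-feature reads per 100 gene counts (bars from 0) in the 4 libraries, 80.0 and 105 in WT and KO HSCs against 62.0 and 60.1 in the CD41low/CD9low pair. Right, KO/WT ratio of the 5 lncRNAs in HSCs scaled by the median of ratios of gene counts (circles) or to gene counts plus no-feature reads (squares), with the cutoff of 0.6 dotted; no counting intervals are drawn, and the second scaling lowers each ratio by the same factor.

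Ratios in HSCs also varied with gene length. Genes with under 1 kb of exon had a median KO/WT ratio of 0.871 and those with 8 kb or more one of 1.15 in HSCs, against 1 and 1.02 in CD41low/CD9low HSCs. Gas5, Snhg12 and Mir17hg, of 2.40 to 3.76 kb, lie where the running median over 500 genes of like length was 0.927 to 0.980. Neat1, the longest lncRNA measured in HSCs, lies where it was 1.26. Divided by this median, the HSC ratios were 0.519 for Neat1, 0.490 for Mir17hg, 0.710 for Gas5, 0.736 for Snhg12 and 0.930 for Malat1. By this correction 2 of the 5, Neat1 and Mir17hg, were below 0.6, where 9.31% of 15676 genes were. The correction used the whole annotated 20.8 kb of Neat1, and the length of the transcripts read in these poly(A)-selected libraries is not known. Genes with 2 to 4 kb of exon had a median of 0.940 in HSCs and those with 4 to 8 kb one of 1.03. The corrected value of Neat1 therefore depends on the length taken. In CD41low/CD9low HSCs the corrected ratios were 0.980 for Malat1, 0.982 for Kcnq1ot1, 0.988 for Gas5, 1.03 for Mir17hg, 1.08 for Neat1 and 1.20 for Snhg12, so that Malat1 and Kcnq1ot1 passed from above to below 1.

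**Figure D4:**
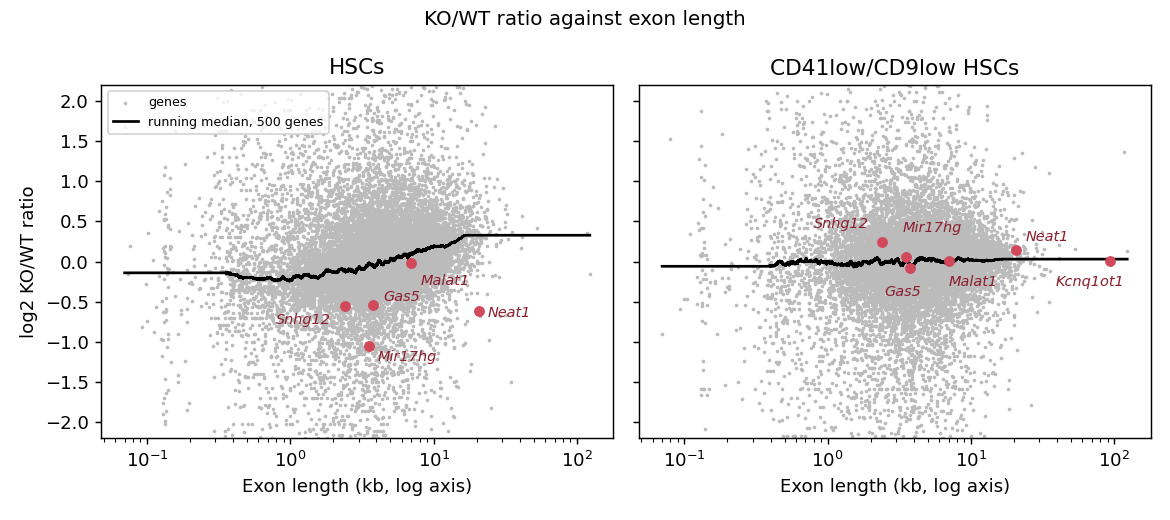
Log2 KO/WT ratio (y) against exon length (x, kb, log axis) of all genes that passed the filter (grey), in HSCs (left) and CD41low/CD9low HSCs (right), with the running median over 500 genes (black, drawn flat at both ends) and the lncRNAs in red. Of 15676 and 14741 genes with a length, 739 and 1369 lie outside the y axis; the median rises with length in HSCs, where Neat1 lies below it by more than Gas5 and Snhg12 do.

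Protein partners of the nuclear lncRNAs were read in the same way. For these lists and those below, the shares of all genes to compare were 14.1% above 1.5 and 10.3% below 0.6 in HSCs. In CD41low/CD9low HSCs they were 13.5% and 12.0%. For calls by genotype in the fit over both populations the share was 2.81%. Of 29 paraspeckle proteins, 1 was above 1.5 and 1 below 0.6 in HSCs, and 0 of 28 passed a cutoff in CD41low/CD9low HSCs. In the fit over both populations 2 of the 29 were called for genotype, where 2.81% of all genes were. The 1 called lower was the splicing factor Hnrnpa1 (log2 -0.57 ± 0.14, edgeR's quasi-likelihood test, adjusted p = 0.00459), and the 1 called higher was the kinase Csnk1e (0.55 ± 0.16, adjusted p = 0.0225). Hnrnpa1 had 36204 and 16244 counts in HSCs (ratio 0.554) and 9407 and 11663 in CD41low/CD9low HSCs (ratio 0.827). Hnrnpk, an RNA-binding protein that Neat1 processing depends on, had ratios of 0.781 and 0.953. Of 25 nuclear speckle proteins, 1 was above 1.5 in HSCs and 0 passed a cutoff in CD41low/CD9low HSCs, and 0 of 25 were called for genotype. Son, a core protein of speckles, had ratios of 1.09 and 1.02, and the helicase Ddx5 had 0.830 and 1.06.

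Most genes of the snoRNA pathway had a ratio below 1 in HSCs. Of 34 protein-coding snoRNA hosts, largely ribosomal protein and translation genes, 31 had a ratio below 1 in HSCs, with a median of 0.835, and 20 of 34 in CD41low/CD9low HSCs, with a median of 0.992, and the median of all genes was 1 and 1.01. Rack1 and Rps3, of the small ribosomal subunit, had ratios of 0.833 and 0.779 in HSCs and 0.977 and 0.899 in CD41low/CD9low HSCs. Of 15 proteins of the snoRNP and pseudouridine core, 14 were below 1 in HSCs, with a median of 0.775, and 12 in CD41low/CD9low HSCs, with a median of 0.914. Below 0.6 in HSCs were 2 of the 34 hosts and 2 of the 15 core proteins, where 10.3% of all genes were. In CD41low/CD9low HSCs 0 of either list passed a cutoff, where 13.5% of all genes were above 1.5 and 12.0% below 0.6. Nucleolin (Ncl), which is in both lists, was the 1 gene called for genotype in each (log2 -0.47 ± 0.14, adjusted p = 0.0291, edgeR's quasi-likelihood test), with 64787 and 31267 counts in HSCs. Of all genes, 2.81% were called for genotype. The nucleolar chaperone Npm1 had ratios of 0.756 and 0.926. Short genes as a whole had lower ratios in HSCs, as given above, and the part of length in these lists was not tested.

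The other snoRNA host lncRNAs had ratios on both sides of 1. Of 9 measured in HSCs, 2 were above 1.5, 0 below 0.6 and 5 below 1, with a median of 0.958. Of 11 in CD41low/CD9low HSCs, 1 was above 1.5, 1 below 0.6 and 3 below 1, with a median of 1.20. The shares of all genes above 1.5 and below 0.6 were 14.1% and 10.3% in HSCs, and 13.5% and 12.0% in CD41low/CD9low HSCs. Zfas1, a host of C/D box snoRNAs, had 6428 and 3554 counts in HSCs and 1296 and 2338 in CD41low/CD9low HSCs. Its ratios were 0.682 (0.655 to 0.711) and 1.20 (1.12 to 1.29). These ratios lie next to those of Snhg12. Snhg17 had 1.12 and 0.947, and Snhg20 was the 1 host of 9 called for genotype, where 2.81% of all genes were. Snhg20 was higher in KO by a log2 of 0.91 ± 0.20 (adjusted p = 0.00102, edgeR's quasi-likelihood test). Of 15 factors of nonsense-mediated decay, which degrades spliced host RNAs, 10 were below 1 in HSCs (median 0.935) and 4 in CD41low/CD9low HSCs (median 1.03), and 0 were called. Smg1, the kinase of this pathway, was the 1 factor past a cutoff, with a ratio of 1.69 in HSCs and 1.03 in CD41low/CD9low HSCs, and the helicase Upf1 had 0.931 and 1.20.

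Other nuclear lncRNAs had ratios in both directions. Of 14 in HSCs, 4 were above 1.5 and 4 below 0.6, where 14.1% and 10.3% of all genes were. Of 15 in CD41low/CD9low HSCs, 4 were above and 3 below, where 13.5% and 12.0% of all genes were. Several of these rest on small counts. In CD41low/CD9low HSCs, Mirg had 0 counts in WT and 22 in KO, and Nespas had 55 and 29. For genotype, 1 of 15 was called higher and 1 lower, where 2.81% of all genes were called in either direction. Pvt1, a neighbour of Myc, had 232 and 460 counts in HSCs and 24 and 148 in CD41low/CD9low HSCs and was called higher in KO (log2 1.63 ± 0.46, adjusted p = 0.0209, edgeR's quasi-likelihood test). Meg3, an imprinted lncRNA, was called lower, by -1.48 ± 0.34 (adjusted p = 0.00153). Miat had 17 counts in WT and 315 in KO HSCs (ratio 22.9, interval 14.1 to 39.8) and 5 and 12 counts in the other pair. H19, an imprinted growth-linked lncRNA, had 37 and 14 counts in HSCs and 106 and 21 in CD41low/CD9low HSCs.

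Kcnq1ot1 silences genes of the Kcnq1 domain. Of 17 genes listed in or near that domain, 13 were measured, and which of them it silences in these cells was not tested. In the CD41low/CD9low pair, in which Kcnq1ot1 was at 348 CPM in both libraries, 1 was above 1.5, 0 were below 0.6 and the median ratio was 0.985. In HSCs 1 was above and 3 were below, with a median of 0.874, and 0 of 13 were called for genotype. The shares of all genes above 1.5 and below 0.6 were 13.5% and 12.0% in CD41low/CD9low HSCs, and 14.1% and 10.3% in HSCs. Nap1l4 had ratios of 0.942 and 1.01 and Tspan32 of 0.850 and 1.11 in HSCs and CD41low/CD9low HSCs. The cell cycle inhibitor Cdkn1c had 813 and 284 counts in HSCs (ratio 0.431, interval 0.375 to 0.494) and 492 and 714 in CD41low/CD9low HSCs (0.968, 0.861 to 1.09), and is named here after its values were seen.

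For Mir17hg, 23 regulators, processing factors and known targets of the cluster were measured. In HSCs 3 were above 1.5 and 1 below 0.6, where 14.1% and 10.3% of all genes were. In CD41low/CD9low HSCs 1 was above and 2 were below, where 13.5% and 12.0% of all genes were. For genotype, 1 of 23 was called higher and 1 lower, where 2.81% of all genes were called in either direction. Bcl2l11, the proapoptotic Bim and a known target of the cluster, was called higher in KO (log2 change 1 ± 0.23, adjusted p = 0.00176, edgeR's quasi-likelihood test). It had 1202 and 1964 counts in HSCs and 163 and 490 in CD41low/CD9low HSCs, with ratios of 2.017 and 2.004. Thbs1, the angiogenesis inhibitor thrombospondin and another known target, was called lower (-1.30 ± 0.26, adjusted p = 1.44e-04), with ratios of 0.492 and 0.334. The ratio of Mir17hg itself was 0.481 and 1.04 in the same pairs, and no test of the host against its targets was made. Of 5 other lncRNAs taken as microRNA hosts, 1 was above 1.5 and 1 below 0.6 in HSCs, and 2 and 1 in CD41low/CD9low HSCs. Mir22hg was the lncRNA below 0.6 in both pairs, with 144 and 43 counts in HSCs and 36 and 0 in CD41low/CD9low HSCs. None of the 5 was called for genotype. Mirt1, among the 5, is not known as a microRNA host, and its ratios of 0.928 and 0.907 passed no cutoff.

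The genes whose levels were distributed most like each lncRNA over the 4 libraries were sought among 11064 genes with at least 50 counts in every library, by the Euclidean distance between log2 normalized profiles centred on their mean. Closest to Malat1 were Tm9sf3 (distance 0.02) and Cept1 (0.03), and closest to Gas5 were Tacc3 (0.06) and 4933404O12Rik (0.07). Neat1 was nearest to Ccnl1 (0.06) and Tex30 (0.18), and Mir17hg to Jmjd6 (0.12) and Sertad1 (0.17). For Snhg12 the nearest were Gm12355 (0.03) and Zfas1 (0.04), the latter a snoRNA host like Snhg12 itself. Among the 5 lncRNAs, the closest pair was Malat1 and Gas5 (0.47), next came Snhg12 and Mir17hg (0.50), and the farthest were Neat1 and Snhg12 (1.28). With 4 libraries, many genes share a profile by number alone, and nearness says nothing of shared control.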

How the data were processed

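RNA of sorted cells was prepared with the TruSeq Stranded mRNA kit and sequenced on an Illumina HiSeq. According to the submitters' processing notes, the authors aligned reads with TopHat2 2.0.10 to mm10 (GRCm38), used SAMtools and counted with HTSeq; the deposited values are raw counts per Ensembl gene. The annotation release, the HTSeq version and its strand setting are not given in the sources used here. The closing lines (no feature, ambiguous, not unique) stayed out of gene totals.

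Identifiers were named from GENCODE M21, which matched 36345 of 38293 genes of the HSC tables and 40254 of 41214 genes of the CD41low/CD9low tables. Size factors were medians of ratios per pair, as in DESeq (KO/WT 0.810 and 1.5), over genes with counts in both libraries of the pair. Shares and percentiles of all genes used those with at least 10 counts in a library of the pair. Of the 37140 shared genes, the 16262 with at least 10 counts in a library were fitted with population and genotype. This was done in edgeR 4.0.16 (R 4.3.3, TMM, Benjamini-Hochberg), and its SE is the log2 change divided by the square root of F. DESeq2 1.42.0 was an alternative. Python 3.11.15, numpy 2.4.6, scipy 1.17.1 and pandas 2.3.3 were used. Fits and ratios were tested on simulated data. The simulated genotype effect was the same in both populations, so effects that differ between them were not covered.

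The members and gene lists were chosen with earlier results of these data known. Named list genes were up to 3 past a cutoff in the same direction in both pairs, or otherwise the 2 with the highest mean CPM, and genes called in the fit were added. The comparison with genes of 500 counts or more was chosen after seeing the data. Intervals cover counting error only.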

Additional observations from a re-analysis of the deposited data

Results flagged for a closer look

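Malat1, Neat1, Snhg12 and Mir17hg are listed here because their KO/WT ratio was below 1 in HSCs and above 1 in CD41low/CD9low HSCs. The CD41low/CD9low ratio divided by the HSC ratio was 1.018 for Malat1, 1.696 for Neat1, 1.729 for Snhg12 and 2.167 for Mir17hg, and each rests on 1 library per group. The difference between the populations was not tested, since no residual degree of freedom is left for it, and 21.9% of all genes went the same way. After the correction for exon length the ratio of Malat1 was below 1 in both populations (0.930 and 0.980). For Malat1 and Mir17hg the interval of the CD41low/CD9low ratio includes 1.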

How the results depend on the processing

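The number of lncRNAs below the cutoff in HSCs was 1 of 5. It was 4 with libraries scaled to gene counts plus no-feature reads (14.1% of all genes) and 2 with a cutoff of 1/1.5 (12.7%). It was also 2 after the correction for exon length (9.31%), which used the whole annotated length of Neat1. The other alternatives kept 1 of 5. The first of these scalings divides all HSC ratios by a larger KO/WT factor (0.936 in place of 0.810). The count of lncRNAs called for population fell from 3 to 1 with gene plus no-feature totals. Over all genes, 457 were called for genotype, 240 with RLE factors, 420 with no filter, 128 with a filter of 50 counts, 229 with gene plus no-feature totals and 100 by DESeq2, and 0 of the 5 lncRNAs in any of these. For population, 3716 genes were called (1481 higher and 2235 lower in CD41low/CD9low HSCs), against 2372 by DESeq2 and 3442 (2748 higher and 694 lower) with gene plus no-feature totals. Over 10 alternatives the HSC ratio ran from 0.416 to 0.490 for Mir17hg, 0.519 to 0.651 for Neat1, 0.595 to 0.710 for Gas5, 0.591 to 0.736 for Snhg12 and 0.854 to 0.987 for Malat1. For genotype, the adjusted p over the alternatives was 0.186 to 0.816 for Mir17hg and 0.424 to 0.745 for Gas5, and for population 2.81e-18 to 8.29e-04 for Neat1. The fit over 4 libraries compares the genotypes within each population. Beyond it, pairing by replicate number and leaving out a library were not possible with 1 library per group. The depth of the CD41low/CD9low pair limits Mir17hg to a counting interval of 0.931 to 1.17.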
